A study of Mus musculus with 2 samples.

Results

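The hepatocyte lineage transcription factors described here are *Hnf4a*, *Foxa1*, *Foxa2*, *Foxa3*, *Cebpa*, *Cebpb*, *Nr5a2*, *Onecut1* and *Prox1*. They were taken by name from the gene column of the arrays, with every probe that carried the name and was no control spot. This gave 9 genes with 12 probes, of 37074 names and 56605 probes on the array, and all 9 were among the 20165 genes that stood above background on at least 1 array. The study compared primary hepatocytes of control mice and of *Drp1*LiKO mice, which lack the mitochondrial fission protein Drp1 in hepatocytes, with 1 array per genotype and cells harvested 24 h after seeding. *Drp1*LiKO mice carried *Alb-Cre* Tg/+ and *Drp1* flox/flox, with Cre under the albumin promoter, which is active in hepatocytes. The controls were littermates with *Drp1* flox/flox and no Cre according to the study's methods, whereas the label calls them wild type. If the methods hold for these arrays, the floxed alleles are shared by both groups and Cre is not. The strain was C57BL/6 by the labels, neither culture received LPS, and the age of these animals and the number whose cells went onto an array are not given in the sources used here. The hepatocytes came from collagenase-perfused livers and low-speed pelleting, and the methods name no sort, so each array holds the whole attached culture. With 1 array per genotype no test was possible, and no value below says how far 2 cultures of the same genotype would differ.

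Hepatocyte identity rests on a small set of transcription factors that bind one another's regulatory regions and those of the secreted proteins and metabolic enzymes of the liver. FOXA1, FOXA2 and FOXA3 are forkhead factors that can bind closed chromatin, HNF4A and NR5A2 are nuclear receptors, C/EBPα and C/EBPβ are basic leucine zipper factors, and ONECUT1 (HNF6) and PROX1 are homeodomain proteins active early in liver development. In culture, isolated hepatocytes are known to lose part of this expression program with time.

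All 12 probes were 60 bases long. For *Hnf4a*, *Onecut1* and *Prox1* the array held 2 probes each, and for the other 6 genes 1 probe each. Over the 63 pairs of probes for different genes, the longest run of identical bases was 8, so no probe of a family member carried a long stretch of another's probe. The following pair of probes lies in coding sequence, that of *Hnf4a* in the part for the zinc-finger DNA-binding domain and that of *Onecut1* in the part for the homeodomain, and they are shown because their genes are the ones whose probes have very different brightness. The *Hnf4a* probe is the dimmer of its 2 and lies at chr2:163378302-163378361, and the *Onecut1* probe is the brighter of its 2 and lies at chr9:74737272-74737331 (mm9, plus strand).
Hnf4a dim probe: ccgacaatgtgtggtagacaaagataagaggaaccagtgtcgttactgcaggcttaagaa
Onecut1 bright probe: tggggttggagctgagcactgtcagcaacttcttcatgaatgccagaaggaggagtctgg

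The 9 genes lie on 5 chromosomes. In the RefSeq table of GRCm38.p6, *Foxa2* (148042877 to 148046969), *Hnf4a* (163506811 to 163572907) and *Cebpb* (167688915 to 167690432) share chromosome 2, *Foxa3* (19013283 to 19023539) and *Cebpa* (35119293 to 35121928) share chromosome 7, and *Nr5a2* (136842562 to 136960448) and *Prox1* (190118035 to 190170827) share chromosome 1. *Foxa1* lies on chromosome 12 (57540628 to 57548029) and *Onecut1* on chromosome 9 (74861921 to 74889648).

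The 250 bases before each annotated start, 14 windows over the 9 genes, had a median GC content of 59.8% against 52.4% over all 32817 such windows, and a median of 15.5 CpG dinucleotides against 6. The range ran from 43.2% at a start of *Nr5a2* to 81.6% at *Cebpb*. These windows were searched on both strands for letters that such factors recognise, and 4 matches were found. The ONECUT letters ATTGAT stood in 2 of the 14 windows, upstream of *Hnf4a* and of *Foxa2*, against 6.73% of all windows. The FOXA letters TGTTTAC stood in 1 window, 141 bases before a start of *Foxa1* that lies inside the annotated gene, against 3.16% of all windows. The C/EBP letters TTGCNNAA stood in 1 window, 243 bases before a start of *Nr5a2* that is also inside the gene, against 9.57%. No match was found in these windows for the HNF4 letters CAAAGTCCA (0.384% of all windows), the NR5A2 letters CAAGGNCA (5.53%) or the HNF1 palindrome (0.009%). No search letters lie within those of another motif, and a match is a description of the sequence only. The windows with the ONECUT letters are printed because they place letters of 1 member before the start of 2 others, with the match in capitals. That of *Hnf4a* is the plus strand of chr2:163506607-163506810 (GRCm38.p6), cut where the annotated gene begins, and its match reads on the other strand, 59 bases before the start used for the window. That of *Foxa2* is the minus strand of chr2:148046970-148047219, with the match 213 bases before the start.
Hnf4a upstream: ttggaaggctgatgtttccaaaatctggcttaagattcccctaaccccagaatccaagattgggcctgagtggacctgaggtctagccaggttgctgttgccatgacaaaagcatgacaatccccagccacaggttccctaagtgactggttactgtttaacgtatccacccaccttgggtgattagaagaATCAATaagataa
Foxa2 upstream: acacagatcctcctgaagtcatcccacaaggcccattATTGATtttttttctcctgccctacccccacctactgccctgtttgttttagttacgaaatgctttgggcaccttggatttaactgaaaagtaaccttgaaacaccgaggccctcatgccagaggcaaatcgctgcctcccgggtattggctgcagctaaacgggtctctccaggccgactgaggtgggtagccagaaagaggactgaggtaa

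The gene removed in these mice, *Dnm1l*, which encodes Drp1, had a signal of 2602 on the control array and 1217 on the *Drp1*LiKO array at its brighter probe, 2.43-fold lower after scaling (log2 ratio of -1.28). Its Z score was -1.95, so the removed gene itself fell short of the Z score of 2 used below. The dimmer *Dnm1l* probe had 22.83 in control and 20.95 in *Drp1*LiKO cells (log2 ratio of -0.31, with a software error of 0.40). Hepatocyte markers were present on both arrays, with 13 of 14 listed genes above background and a median log2 ratio of 0.10. Their summed signals before scaling were 912845 and 979829. Once scaled, the log2 ratio of these sums was -0.08, the *Drp1*LiKO sum being slightly the lower. *Arg1*, the liver arginase, was the 1 marker past a Z score of 2 (99.8 and 351, log2 ratio of 1.63), and no marker was with the deposited values or with no lower limit on dim signals. *Cyp2e1*, a cytochrome P450 of the liver, was lowest (12679 and 8360, -0.78). The median of these markers was -0.03 when the median of a gene's probes was taken. Markers of macrophages, endothelial cells and stellate cells were mostly higher on the *Drp1*LiKO array, and those of cholangiocytes were not. Among 14 listed Kupffer cell and macrophage markers 12 were detected and 12 were higher, their median ratio being 2.53 (log2) and their summed signals 4734 and 20802. Of 13 endothelial markers 12 were higher (median of 1.26, sums of 4600 and 9717). Of 9 detected stellate cell markers 8 were higher (median of 0.97, sums of 21841 and 29206), and of 5 cholangiocyte markers 2 were higher (median of -0.27, sums of 29674 and 25163). These sums are also before scaling. After scaling, the log2 ratio of the sums was 1.95 for macrophage, 0.88 for endothelial, 0.23 for stellate and -0.42 for cholangiocyte markers. In control cells 10 of the 12 macrophage, 9 of the 13 endothelial, 4 of the 9 stellate and 4 of the 5 cholangiocyte markers were well above background, and all of them were in *Drp1*LiKO cells. The remaining markers entered through the array where they are high, so the counts and medians of these lists are partly fixed by the filter. *Timd4*, *Cd163*, *Lrat*, *Epcam*, *Cftr* and *Muc1* were not well above background on either array. The part of other cells in the values below was not tested.

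Values are given first as the processed signal, the background-corrected brightness of a probe in the scanner's fluorescence units, and then as a log2 ratio of *Drp1*LiKO over control after each array was divided by its own 75th percentile (313 and 356). Because that percentile was 0.18 higher on the log2 scale for *Drp1*LiKO, a gene with equal signals on both arrays has a ratio slightly below 0. The error beside a ratio is the one the scanning software gives for the 2 signals, about 0.20 for a bright probe, and it covers neither animals nor cultures. Probes printed 10 times on the array varied less than this, and for the brightest probe of each gene the 7 such probes nearest in signal gave a noise of the ratio of 0.08 to 0.11. A gene is represented by its brightest probe, and its size is read against the 1.5-fold line (0.585 on the log2 scale) and a Z score of 2 over all probes (1.30 higher or -1.31 lower).

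None of the 9 genes lay past a Z score of 2 in either direction, where 3.5% of all genes were higher and 2.81% lower, and none lay past 1.5-fold, where 10.3% of all genes were higher and 10.3% lower. *Hnf4a*, *Foxa3*, *Cebpb* and *Onecut1* had ratios above 0, and *Foxa1*, *Foxa2*, *Cebpa*, *Nr5a2* and *Prox1* below 0. Of all 20165 genes tested, 8981 were above 0 and 11184 below, and this split also stands beside the gene lists below. The median ratio was -0.12, beside -0.05 over all genes. It was -0.31 when the median of a gene's probes was taken, with 3 genes above 0, and -0.03 with the deposited normalized values. The median size of a ratio regardless of sign was 0.16, beside 0.24 over all genes. This size depended on the probe taken for *Onecut1*, whose ratio was 0.02 at its bright probe and -0.39 as the median of its probes. The value for all genes also includes genes well above background on 1 array only. The members are therefore not read as differing less than other genes. Every one of the 12 probes was well above background on both arrays, and no spot was saturated or marked as an outlier, so no ratio is a bound. With 9 genes, a count of 0 at these lines is close to what the background shares give, and it is not a result particular to these genes. In a culture of mixed cells, fewer hepatocytes and less RNA of a gene per hepatocyte cannot be told apart.

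**Figure D1:**
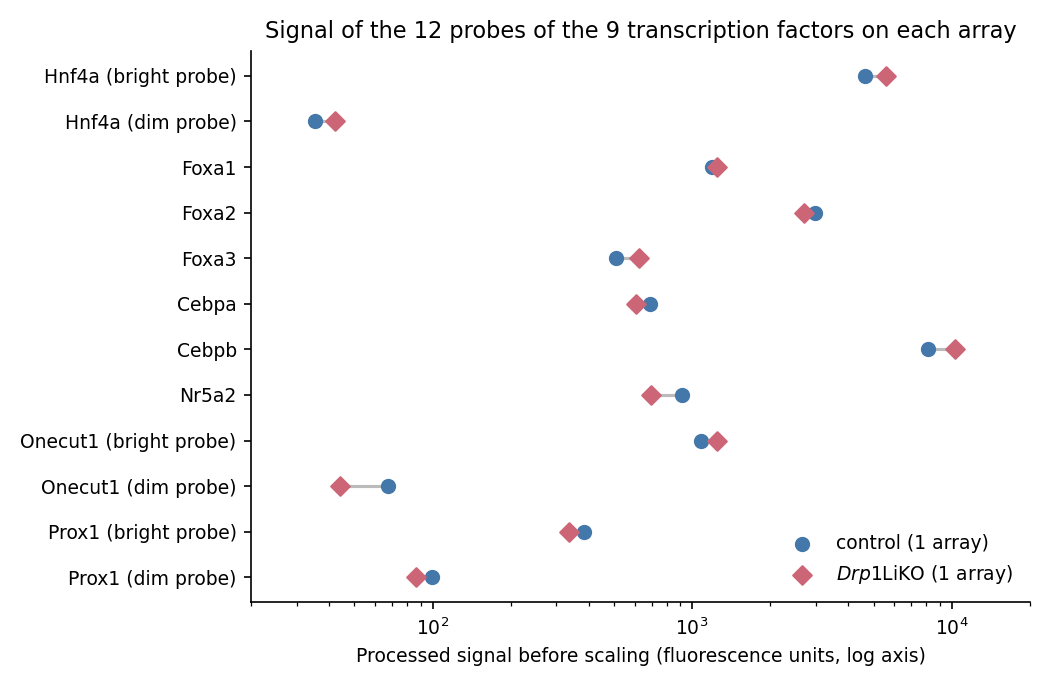
Processed signal of each of the 12 probes on the control array (circles) and the *Drp1*LiKO array (diamonds), before scaling, on a log axis in fluorescence units; each point is 1 array and has no replicate. The 2 points of a probe lie close together for most genes, and the widest gaps are at the dim probe of *Onecut1* (67.6 and 44.0) and at *Nr5a2* (914 and 696). Positions of different probes on the axis cannot be compared with each other.

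*Hnf4a*, the nuclear receptor that activates a broad set of genes for lipoproteins, clotting factors and metabolism in the adult hepatocyte, had a signal of 4631 in control cells against 5608 in *Drp1*LiKO cells at its brighter probe (chr2:163398548-163398607, mm9). The *Drp1*LiKO value was the higher, and after scaling the ratio was 0.09 ± 0.20, or 1.07-fold. Of all genes, 79.2% had a larger ratio in size. Its dimmer probe, the coding probe printed above, lies 20186 bases away in the gene and gave 35.3 and 42.1, a ratio of 0.07 ± 0.28. Both probes thus placed *Hnf4a* within 0.10 of no difference, although the deposited normalized values put the dimmer probe at -0.33 and the brighter at 0.11.

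*Nr5a2* encodes LRH-1, a nuclear receptor with a role in bile acid and cholesterol metabolism of the hepatocyte. Its signal was 914 in control cells against 696 in *Drp1*LiKO cells, the lower value of the pair being that of *Drp1*LiKO (chr1:138740903-138740962, mm9). The ratio of -0.57 ± 0.20 was the lowest of the 9 genes, 1.49-fold, with a Z score of -0.87. Of all genes, 10.5% had a lower ratio. It lay just short of the 1.5-fold line, and it was past that line with the deposited normalized values, at 958 and 592 and a ratio of -0.69.

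The FOXA genes, whose products open chromatin at liver enhancers, lay on both sides of 0. *Foxa1* had 1192 in control cells against 1245 in *Drp1*LiKO cells, which after scaling is a ratio of -0.12 ± 0.20 (chr12:58641764-58641823, mm9), and with the spike-in probes or the deposited values it lay nearer 0. *Foxa2*, the member most tied to fasting metabolism and bile acid balance in adult liver, had 2970 and 2710, lower in *Drp1*LiKO also before scaling (chr2:147868669-147868728). Its ratio was -0.31 ± 0.20, or 1.24-fold, and 40.1% of all genes had a larger ratio in size. *Foxa3*, the FOXA gene most abundant in adult liver, had 510 in control cells against 627 in *Drp1*LiKO cells, a ratio of 0.12 ± 0.20 (chr7:19599053-19599112). No FOXA gene differed by 1.5-fold, and the ratios of *Foxa3* and *Foxa2* were 0.43 ± 0.29 apart.

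The C/EBP genes also lay on opposite sides of 0. *Cebpa*, whose product keeps hepatocytes quiescent and supports genes of gluconeogenesis, glycogen and urea synthesis, had 688 in control cells against 607 in *Drp1*LiKO cells (chr7:35906517-35906576, mm9). Its ratio was -0.36 ± 0.20, or 1.29-fold lower. *Cebpb*, whose product acts in the acute phase response and in liver regeneration, had 8110 and 10299.5, higher in *Drp1*LiKO cells (chr2:167515828-167515887). Its ratio was 0.16 ± 0.20, or 1.12-fold, the highest of the 9 genes. The ratios of *Cebpb* and *Cebpa* were 0.53 ± 0.29 apart, that is, the signal of *Cebpb* over that of *Cebpa* was 1.44-fold higher on the *Drp1*LiKO array, a quantity that no scaling of a whole array can move. *Cebpb* is also expressed in macrophages, whose markers were higher on the same array as given above, and their part in its value was not tested.

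*Onecut1*, whose product controls *Hnf4a* and *Foxa2* in the developing liver, is the gene whose value depended on the probe. The homeodomain probe printed above gave 1085 in control cells against 1251 in *Drp1*LiKO cells, a ratio of 0.02 ± 0.20, and 94.5% of all genes had a larger ratio in size. The other probe, separated from it by 70 bases (chr9:74737402-74737461, mm9), gave 67.6 and 44.0, a ratio of -0.80 ± 0.25, or 1.74-fold lower. The 2 probes were 0.82 apart, beside a software error of 0.32 and a spot noise of 0.28 for that difference. This was the 1 probe of 12 past 1.5-fold, where 9.71% of all probes above background were lower by as much. Taking the median of the 2 probes moved the gene from 0.02 to -0.39, and the deposited values gave 0.25 and -0.72 for the bright and the dim probe. With another background correction (normexp), which here also added an offset of 50 to every signal, the dim probe was at -0.45, short of 1.5-fold. The offset by itself draws ratios of dim probes toward no difference. Its part and that of the background estimate were not separated.

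*Prox1*, a homeodomain factor that marks hepatocyte precursors and remains in adult hepatocytes as well as in lymphatic endothelium, had a signal of 382 in control cells against 335 in *Drp1*LiKO cells (chr1:191946360-191946419, mm9). Its ratio was -0.37 ± 0.21, or 1.30-fold lower. The dimmer probe, 2632 bases away (chr1:191943668-191943727), had 99.8 and 86.0, a ratio of -0.40 ± 0.22. The 2 probes differed by 0.02, far less than their error of 0.30, although the deposited values put them at -0.22 and -0.08. Of 5 listed markers of lymphatic endothelium 4 were detected, with summed signals of 231 and 579 and a median log2 ratio of 1.28, or 1.04 over the 3 measured on both arrays. *Pdpn* and *Reln* were higher in *Drp1*LiKO cells, *Flt4* was lower (95.4 and 89.5, -0.28), *Lyve1* was well above background in *Drp1*LiKO cells alone, and *Ccl21a* on neither array. The part of such cells in the value of *Prox1* was not tested.

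**Figure D2:**
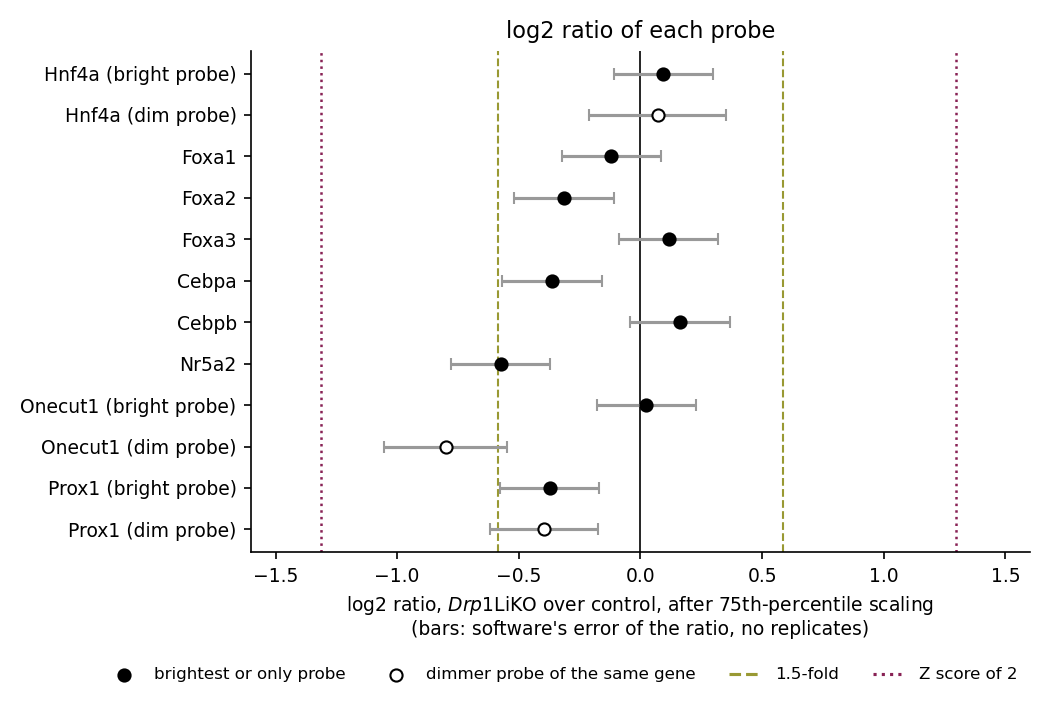
The log2 ratio of each of the 12 probes, *Drp1*LiKO over control, after scaling to the 75th percentile; filled points are the brightest or only probe of a gene, open points its dimmer probe, bars the error given by the scanning software, dashed lines 1.5-fold and dotted lines a Z score of 2. All probes lie between the dotted lines, *Nr5a2* (-0.57) touches the lower dashed line, and the dim probe of *Onecut1* (-0.80) lies past it while its bright probe (0.02) lies at 0.

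How far the genes stood from each other was read from the 36 pairs, since a scaling of the whole array cancels in the difference of 2 ratios. In 17 pairs the difference was larger than its software error, and in 4 it was larger than 2 such errors. The same share over pairs of other genes was not computed, so these counts are not a result particular to the 9 genes. The 4 pairs all set *Nr5a2* against another gene, with *Cebpb* above it by 0.74 ± 0.29, *Foxa3* by 0.69 ± 0.29, *Hnf4a* by 0.67 ± 0.29 and *Onecut1* by 0.60 ± 0.29. They share the only probe of *Nr5a2* and are not separate observations. The gap between *Onecut1* and *Nr5a2* rested on the bright *Onecut1* probe and was 0.19 with the median of its probes. In the 8 alternatives for a ratio, 26 of the 36 pairs kept their order, and 30 did when the median of a gene's probes was left aside. Among those that kept it were the pair of *Cebpb* and *Nr5a2*, with differences from 0.70 to 0.82 and that of *Cebpb* and *Cebpa*, from 0.50 to 0.63. By function, the bright probes of the nuclear receptors *Hnf4a* and *Nr5a2* were 0.67 apart and those of the homeodomain factors *Onecut1* and *Prox1* 0.40 ± 0.29 apart.

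**Figure D3:**
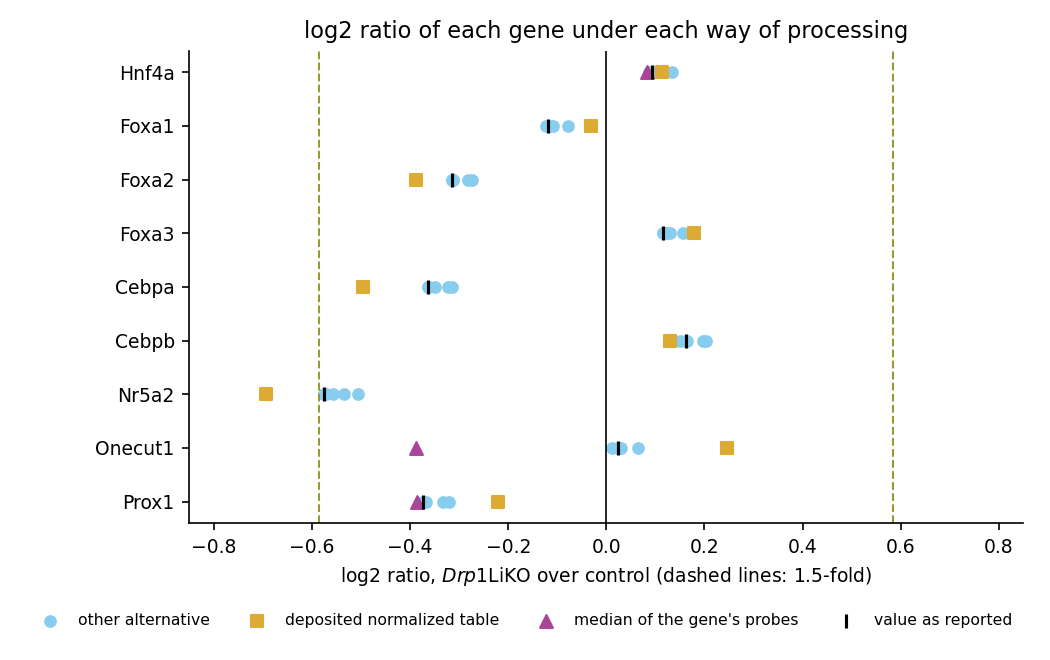
The log2 ratio of each gene, *Drp1*LiKO over control, as reported (black bars), from the deposited normalized table (squares), as the median of the gene's probes where there are 2 (triangles) and under the other normalizations, background corrections and spot filters (light circles); dashed lines mark 1.5-fold. *Nr5a2* is lowest throughout and reaches -0.69 in the deposited table, and *Onecut1* spans from -0.39 to 0.25.

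Of 28 other transcription factors of the liver that were listed, 26 were detected, 16 with a ratio above 0 and 10 below, with a median of 0.04 and a range from -1.06 to 2.20. Past 1.5-fold were 4 higher and 2 lower, beside 10.3% of all genes in each direction. A Z score of 2 was passed by 3.5% of all genes upward and 2.81% downward, and these shares also stand beside the lists below. With 26 genes, the counts are not read as a result particular to the list. Past a Z score of 2 were *Nr1i3*, the xenobiotic receptor CAR, at 19.9 in control cells against 104 in *Drp1*LiKO cells (2.20), and *Dbp*, a circadian PAR bZIP factor, at 263 and 744 (1.32). The lowest was *Tbx3*, a T-box factor of early liver growth, at 316 and 172 (-1.06). With the deposited values none of the list was past a Z score of 2, and with no lower limit on dim signals 1 was. *Nr1i2* and *Nr0b2* were not well above background on either array.

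Genes known as targets of HNF4A and FOXA had medians near 0. Of 31 listed HNF4A targets 28 were detected, 15 above 0 and 13 below, none past a Z score of 2, with a median of 0.06. *Tat*, a tyrosine-degrading enzyme, was highest among those measured on both arrays at 151 and 416 (1.28). All 10 listed FOXA targets were detected, 5 above 0 and 5 below, none past a Z score of 2, with a median of 0.04, and *Igfbp1*, an insulin-regulated binding protein, was lowest among those measured on both arrays at 8527 and 6861 (-0.50). The 3 target lists of HNF4A, FOXA and C/EBP share genes, among them *Alb*, *Tat*, *Pck1* and *G6pc*, and are not separate measurements.

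Among the 12 listed C/EBP targets 7 were above 0 and 5 below, with a median of 0.37, and they held genes past a Z score of 2 in both directions. Of the 12, 4 were well above background on 1 array only (*Pck1*, *G6pc*, *Crp* and *Il6*), so these counts are partly fixed by the filter. The median was also 0.37 over genes above background on both arrays. *Hamp*, which encodes the iron hormone hepcidin, had 24273.5 in control cells against 5534 in *Drp1*LiKO cells (-2.32), and *Crp*, an acute phase protein, had 92.6 in control and was not well above background in *Drp1*LiKO cells, at least 7.02-fold lower. *Arg1*, given above among the hepatocyte markers, was higher, and *Il6*, an inflammatory cytokine, was not well above background in control and had 69.7 in *Drp1*LiKO cells, at least 3.37-fold higher. *Arg1* and *Il6* are also expressed by macrophages, whose markers were higher on that array, and the part of those cells was not tested. Of 4 listed NR5A2 targets only *Scarb1*, the HDL receptor, was well above background (3487 and 3272, -0.27), while *Cyp7a1*, *Cyp8b1* and *Nr0b2* were not on either array, so that targets gave almost no measure beside the lower value of *Nr5a2*.

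Markers of hepatocyte precursors and of mesenchymal change, which accompany loss of the adult program, were mixed as well. Of 12 listed fetal liver and progenitor genes 8 were detected, 4 above 0 and 4 below, with a median of -0.18. *Krt19*, *Krt7*, *Sox9* and *Spp1* are also in the cholangiocyte list, so those lists are not separate measurements. *Krt7* was well above background in *Drp1*LiKO cells alone. *Dlk1*, a surface protein of hepatoblasts, was past a Z score of 2 at 160 in control cells against 69.9 in *Drp1*LiKO cells (-1.37), and no gene of the list was with the deposited values or the median of a gene's probes. *Cd24a* was highest among those measured on both arrays at 812 and 1795 (0.96). Of 10 listed mesenchymal genes 9 were detected, 3 above 0 and 6 below, with a median of -0.12. *S100a4*, a calcium-binding protein of fibroblasts and leukocytes, was past a Z score of 2 at 23479 and 7359 (-1.86), and *Zeb2*, a repressor of epithelial genes, was highest at 246 and 370 (0.41).

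**Figure D4:**
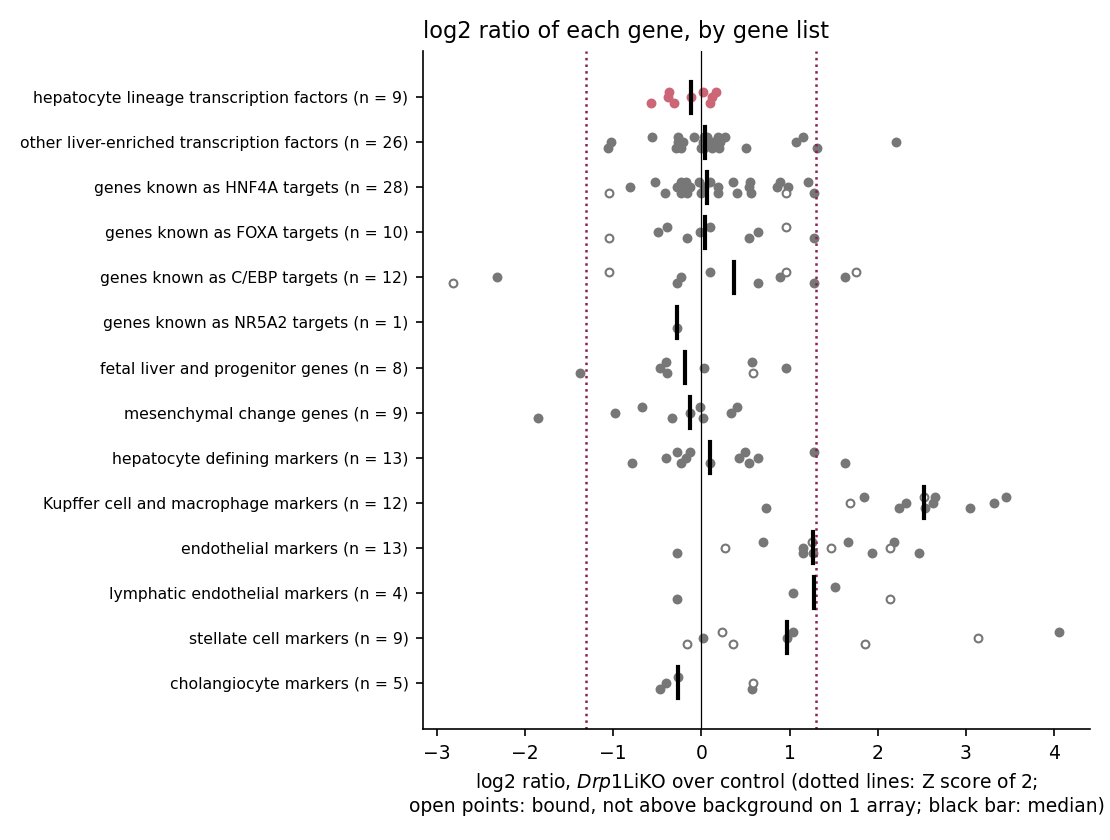
The log2 ratio of every detected gene, *Drp1*LiKO over control, in the 9 transcription factors and 13 other lists; each point is 1 gene on 1 array per genotype, open points are bounds because the gene was not well above background on 1 array, black bars are list medians and dotted lines a Z score of 2. The 9 transcription factors fill a narrow range from -0.57 to 0.16, whereas the markers of macrophages (median of 2.53) and endothelial cells (1.26) lie to the right.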

How the data were processed

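The authors deposited the Feature Extraction output of 2 Agilent arrays with 60-base probes, whose processed signal is an intensity corrected for background, and a table of linear intensities normalized by a method not given in the sources used here, with equal medians of 19.1. The version named in the methods (9.5.1.1) differs from that in the file headers (10.7.1.1). In that table the *Drp1*LiKO column did not follow the order of its array (rank correlation of 0.959, control 1), so it served as an alternative. From the processed signals, log2 values were averaged over spots without outlier flags, each array was centred on its own 75th percentile, and the 30275 probes well above background on either array were kept, with other signals raised to the lowest signal above background. The Z score used the mean and SD (0.65) of all ratios. The script was tested on simulated data. Alternatives used normexp background correction (limma 3.58.1, with an offset of 50), quantile normalization, spike-ins, other filters and other Z scores. Members and gene lists were chosen with earlier results of these data known. The rule for named genes took all members, *Dnm1l*, list genes past a Z score of 2 and the ends of each list among genes measured on both arrays. Those of the other liver cells' lists are given by count, and genes shared between lists or not above background were named in addition. Probe positions are those of the files (mm9). Promoter windows and gene names are from RefSeq (GRCm38.p6), which held 146 of 148 listed genes. Python 3.11.15 and pandas 2.3.3 were used. The value of 1 list gene is not reported here.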

Additional observations from a re-analysis of the deposited data

How the results depend on the processing

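The precision is limited by the 1 array per genotype, and nothing here measures the difference between cultures. No paired analysis was possible because each genotype has 1 array and no replicates. In the 12 alternatives no member passed a Z score of 2. Each member kept the sign of its ratio in every alternative tried, except *Onecut1*, which was 0.02 as reported and -0.39 as the median of its probes. With the deposited values *Onecut1* kept its sign but moved to 0.25. In those values 1 member (*Nr5a2*) was lower past 1.5-fold, and none was otherwise. Without a filter on dim probes the median of all genes was -0.47 in place of -0.05. Signals raised to the lower limit on both arrays then all give the same ratio, which is set by the limits and not by the genes. List medians without a filter include such values. Medians of the lists also moved in other alternatives, for causes that were not tested. For the members the median ran from -0.31 to -0.03, and for hepatocyte markers it turned to -0.03 with the median of a gene's probes. With the deposited values, the median was 0.11 for C/EBP targets, -0.44 for fetal genes, 0.34 for hepatocyte markers, 2.32 for macrophage, 1.84 for endothelial and 2.94 for stellate cell markers. With normexp background correction, whose offset of 50 draws dim ratios toward 0, the median was 1.82 for macrophage and 0.80 for endothelial markers. It was 0.61 for lymphatic endothelial and 0.22 for stellate cell markers. With no lower limit on dim signals it was 1.92 for endothelial and 2.56 for stellate cell markers. Restricting to genes above background on both arrays gave -0.39 for fetal and 1.04 for lymphatic endothelial genes, and no filter gave -0.43, 1.04 and, for stellate cell markers, 0.66. Over the 12 alternatives the number of genes past a Z score of 2 ran from 0 to 6 in the other transcription factors (2 as reported), from 0 to 8 in HNF4A targets (0), from 0 to 3 in FOXA targets (0), from 3 to 8 in C/EBP targets (4), from 0 to 2 in fetal genes (1) and from 0 to 3 in hepatocyte markers (1).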
